A study of Drosophila melanogaster with 5 samples.

Results

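The Fat and Hippo pathways restrain the growth of the Drosophila wing disc, the larval tissue that forms the adult wing and the dorsal thorax. The data described here are the H3K18ac peaks of 10 genes of these pathways, chosen by gene identifier: the cadherin branch (ft, ds and fj), the inputs at the cell membrane (ex, Mer and kibra), the co-activator yki, and the growth and survival outputs ban, Diap1 and CycE. Of 2626 listed peaks, 12 were assigned to these genes, and they belonged to 6 of the 10: fj, ft, ds, ex, kibra and ban. Mer, yki, Diap1 and CycE were not listed. All 12 peaks were lower in etomoxir-treated discs than in control discs, with 23.5% to 56.6% of the normalized reads in control discs. These shares depend on the normalization, and whether it used the added yeast DNA is not given.

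H3K18ac, acetylation of histone H3 on a lysine of its tail, was mapped by Cut&Run, in which an antibody tethers a nuclease that releases the DNA around the mark for sequencing. The etomoxir group held 2 libraries of wing discs from w1118 larvae of the third instar, both sexes together, cultured as explants for 2 h with 500 µM etomoxir, an inhibitor of the import of long-chain fatty acids into mitochondria for oxidation. The control group held 3 libraries of w1118 discs of the same stage and sexes without the drug, of which 2 were cultured for 2 h and 1 was dissected directly. Culture therefore differed along with the drug in 1 of the 3 control libraries, and its share in a difference cannot be told apart here. According to the study's Reporting Summary, one of the cultured controls had far more unique reads than the other libraries. Whole discs were used, so fewer cells carrying the mark and less mark per cell cannot be told apart.

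Fat is an atypical cadherin that binds Dachsous, another giant cadherin, on the neighbouring cell, and Four-jointed is a Golgi kinase that phosphorylates both and tunes their binding. Fat signalling limits the unconventional myosin Dachs, which otherwise lowers the kinase Warts. Expanded, Merlin and Kibra act at the apical membrane to promote the kinase cascade of Hippo and Warts, which phosphorylates Yorkie and keeps it in the cytoplasm. Yorkie that reaches the nucleus works with the DNA-binding protein Scalloped and activates genes for growth and survival. Several upstream components, among them ex, kibra, Mer and fj, are themselves known Yorkie targets, which closes a feedback loop.

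For each peak the table gives 1 value per group, the log2 of its mean normalized read count, and none per library, so no replicate error can be given and no test was fitted. All listed peaks had already passed the authors' false discovery rate (FDR) filter, with a highest value of 0.0499, so a gene that is not listed may carry a mark that did not pass. In what follows, a difference is the log2 value of the etomoxir group minus that of the control group, and positions are in dm6. Of all listed peaks, 83.5% were lower after etomoxir, so a lower direction at 12 of 12 peaks was near the background and is not particular to these genes. At 10 of the 12 peaks the log2 value fell by 1 or more, against 57.5% of all listed peaks and 1511 of the 2194 lower peaks. The gene count stood further from its background. The genes were chosen with earlier results of these data known, so the choice may add to this gap, which was not tested. The interval given with the count does not cover that choice. Of 17873 annotated genes, 8.08% were assigned a lower peak and 1.77% a higher one, while 6 of the 10 growth control genes (60%, 95% Wilson interval 31.3 to 83.2%, counting error only) had a lower peak and 0 of 10 a higher one. Genes with long stretches of sequence nearest to their starts can collect more peaks, and 5 of the 10 had at least 7987 bases, the length that 4469 of the annotated genes reach. Of those genes 20.2% were assigned a lower peak. Neither share was limited to genes that carry H3K18ac in the disc, because only peaks that passed the filter are listed. How far this adds to the gap was not tested.

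The median difference of the 12 peaks was -1.53 (range -2.09 to -0.82), against a median of -1.19 over all 2194 lower peaks, and 8 of the 12 lay below that median. Their signal levels were close to those of all lower peaks. The median etomoxir value was 5.17 on the log2 scale for the 12 peaks and 5.33 for all lower peaks, and the median control value was 6.54 for the 12 and 6.60 for all lower peaks. The etomoxir values of the 12 peaks spanned 3.74 to 6.25 and the control values 5.58 to 7.71, so the ranges of both groups overlapped between peaks, although at each peak the etomoxir value was the lower. GC content was likewise similar, with a median of 45.6% in the 12 peaks (range 39.2 to 52.1%) against 45.4% in all lower peaks.

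**Figure D1:**
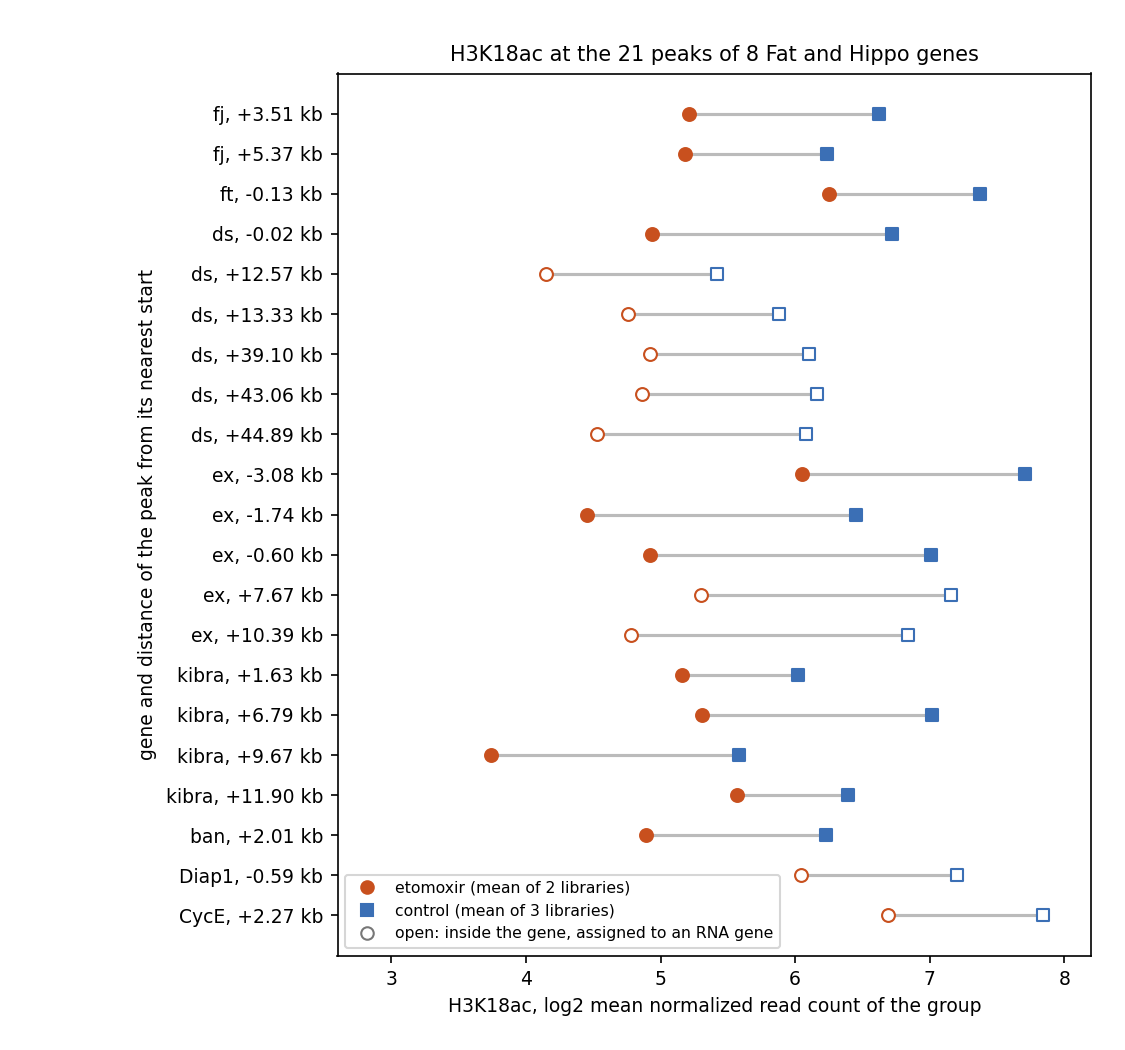
Log2 mean normalized read count of H3K18ac in etomoxir discs (circles, mean of 2 libraries) and control discs (squares, mean of 3 libraries), with a row for each peak, named by gene and distance of the peak from the nearest start of that gene. Filled symbols are the 12 assigned peaks and open symbols 9 peaks that lie inside a gene of the list but are assigned to an RNA gene; all 21 circles lie left of their squares, and no error bars are drawn because the table holds group means only.

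**Figure D2:**
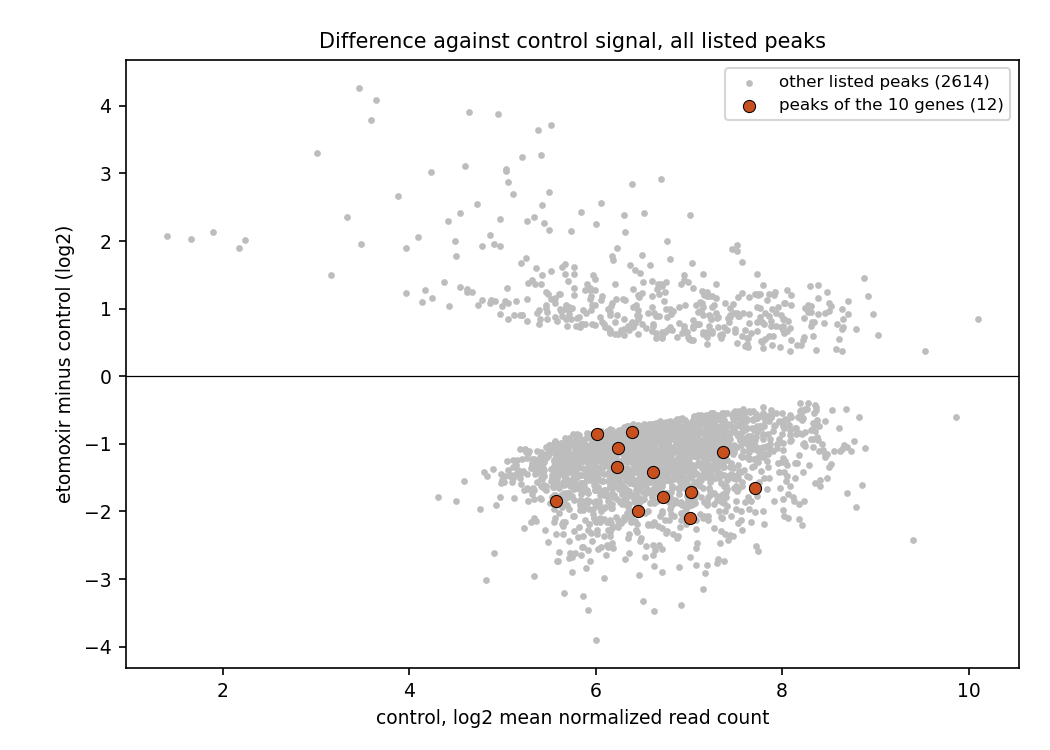
Difference in H3K18ac (etomoxir minus control, log2) against the log2 mean normalized read count in control discs for all 2626 listed peaks. The 12 peaks of the growth control genes (large points) lie between -2.09 and -0.82, within the cloud of lower peaks; the empty band around 0 is where peaks did not pass the authors' filter.

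The first gene of the cadherin branch, fj (FBgn0000658, chr2R:18232761-18236311, plus strand), had a pair of lower peaks at and behind its 3′ end. The first (chr2R:18236273-18237197) begins in the exon of fj and had a mean of 37 normalized reads in etomoxir discs, against 98.4 in control discs, a difference of -1.41. The other (chr2R:18238135-18238978), 5374 bases from the fj start, had 36.3 reads in etomoxir discs and 75.6 in control discs, a difference of -1.06. Both fell to about the same level in etomoxir discs, and they differed mainly in the control. Listed peaks around fj were lower as well. A window of 25 kb around the gene, chosen after the values had been seen, was used for every gene and includes its own peaks. In it 10 listed peaks were lower, the fj pair among them, and 0 higher, with differences of -3.01 to -0.92. Of all listed peaks, 83.5% were lower.

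For ft (FBgn0001075, chr2L:4198404-4221796, minus strand), which encodes the receptor of the branch, a single peak was listed (chr2L:4221927-4224163). At 2237 bases it was the widest of the 12, and it ends 131 bases upstream of the ft start. It had 76.1 normalized reads in etomoxir discs, against 165 in control discs, a difference of -1.12. This was the highest etomoxir level of the 12 peaks, and its difference was larger than at 43.7% of all lower peaks, close to the middle. No other peak was listed within 25 kb of ft.

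The ligand gene ds (FBgn0284247, chr2L:640013-714983, minus strand) had the strongest fall of the cadherin branch. Its assigned peak (chr2L:715005-715860) ends 22 bases upstream of the only annotated ds start and had 30.7 normalized reads in etomoxir discs, against 105 in control discs, a difference of -1.78. Within ds lay 5 more listed peaks, all in introns, which the table assigned to lncRNA:CR44988, a non-coding RNA gene, because its start is closer. They ran from 12575 to 44886 bases behind the ds start. Their levels were 17.8 to 30.3 reads in etomoxir discs, against 42.8 to 71.5 in control discs, with differences of -1.55 to -1.12. The start peak was thus higher in control discs and fell further than any of the 5 intronic peaks. The central 300 bases of the start peak (chr2L:715282-715581, plus strand) are shown because they hold 6 copies of GAGAG or its reverse complement CTCTC, the core bound by the GAGA factor, a protein that helps to open promoters. Capitals mark the copies, 3 of which overlap in 1 run.
ds start peak: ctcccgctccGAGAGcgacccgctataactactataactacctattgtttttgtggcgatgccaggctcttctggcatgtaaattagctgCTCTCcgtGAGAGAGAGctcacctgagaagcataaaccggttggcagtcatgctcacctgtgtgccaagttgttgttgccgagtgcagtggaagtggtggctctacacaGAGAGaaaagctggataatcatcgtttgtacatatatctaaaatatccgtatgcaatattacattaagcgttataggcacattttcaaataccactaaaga

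At least 1 GAGAG was found in the central 300 bases of 9 of the 12 peaks (75%), against 41.6% of all listed peaks and 44.3% of all lower peaks. Over whole peaks it was in 10 of 12 (83.3%), close to the 77.2% of all listed peaks and 78.2% of all lower peaks. Windows with 4 or more copies were 4 of 12 (33.3%), at ds, at fj and at a pair of kibra peaks, against 6.97% of all listed peaks. The match is a description of the letters and not a binding site. The other promoter motif searched, TATCGATA (the DNA replication-related element), was in 0 of the 12 windows and in 1.33% of all windows.

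The next group of genes acts at the cell membrane. Among them ex (FBgn0004583, chr2L:431227-448701, plus strand), a FERM-domain protein that promotes Hippo activity and is a classic Yorkie target, carried the largest differences of all 10 genes. It had 3 lower peaks in a row upstream of its single start. The peak nearest to the start (chr2L:429854-430631), 596 bases away, had 30.3 normalized reads in etomoxir discs, against 129 in control discs, a difference of -2.09 that exceeded 92.7% of all lower peaks. The middle peak (chr2L:428942-429485), 1742 bases away, had 21.9 reads in etomoxir discs, against 87.4 in control discs, a difference of -2.00. The farthest (chr2L:426875-428152), 3075 bases away, was the strongest of the 12 in control discs, with 66.3 reads in etomoxir discs, against 209 in control discs, and a difference of -1.66. In etomoxir discs the normalized reads of these 3 peaks were 23.5%, 25% and 31.6% of those in control discs, nearest peak first.

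Inside ex, in introns, lay a pair of further lower peaks assigned to lncRNA:CR43717, a non-coding RNA gene that starts inside ex. The first (chr2L:438899-440121) had 39.4 normalized reads in etomoxir discs, against 143 in control discs, a difference of -1.86. The other (chr2L:441615-442783) had 27.5 reads in etomoxir discs, against 115 in control discs, a difference of -2.06. All 5 peaks at ex therefore differed by -1.66 or more strongly. Within 25 kb of ex, 7 listed peaks were lower, these 5 among them, and 0 higher, with differences of -2.09 to -0.70. Of the upstream peaks, the farthest and the nearest each held a pair of CATTCC or GGAATG cores, the sequence that Scalloped and its TEAD relatives recognise. These stretches (plus strand, core in capitals, with 30 bases on either side) are shown because ex is a known target of Yorkie and Scalloped. The first pair is from the farthest peak, at chr2L:426931-426996 and chr2L:427206-427271, and the other from the nearest, at chr2L:430020-430085 and chr2L:430504-430569.
ex far 1: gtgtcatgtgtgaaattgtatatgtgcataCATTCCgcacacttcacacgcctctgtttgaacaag
ex far 2: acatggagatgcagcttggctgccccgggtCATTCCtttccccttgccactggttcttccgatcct
ex near 1: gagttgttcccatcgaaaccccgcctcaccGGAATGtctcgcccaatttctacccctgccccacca
ex near 2: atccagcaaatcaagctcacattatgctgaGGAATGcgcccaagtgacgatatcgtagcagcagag

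The WW-domain protein Kibra acts beside Merlin and Expanded to activate the kinase cascade, and kibra (FBgn0262127, chr3R:14697689-14724261, minus strand) had the most peaks of the 10 genes, 4 in number and all lower. All 4 lay in introns. From the start inwards, the first (chr3R:14722032-14722630), 1631 bases in, had 35.8 normalized reads in etomoxir discs, against 64.9 in control discs, a difference of -0.86. The next (chr3R:14716494-14717474), 6787 bases in, had 39.7 reads in etomoxir discs, against 130 in control discs, a difference of -1.71. Of the 4, the outer peaks fell least and the inner ones most. The narrowest peak (chr3R:14714255-14714592, 338 bases), 9669 bases in, had 13.4 reads in etomoxir discs, against 47.8 in control discs, a difference of -1.84 and the lowest level of the 12 in either group. The last (chr3R:14711551-14712364), 11897 bases in, had 47.5 reads in etomoxir discs, against 83.9 in control discs, a difference of -0.82.

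The differences within kibra ran from -1.84 to -0.82, most of the range of the 12 peaks. The 2 of 12 peaks that fell by less than 1 on the log2 scale were both in kibra. The last kibra peak was picked for its sequence, as the one of the 12 with the most CATTCC cores. Its central 300 bases (chr3R:14711807-14712106, plus strand) hold 4 CATTCC cores, of which the first 2 overlap by a single base. Of the 2626 windows, 3 (0.114%), this one among them, hold 4 or more. As with GAGAG, the match describes the letters and is not a binding site. The window is shown with the cores in capitals.
kibra last peak: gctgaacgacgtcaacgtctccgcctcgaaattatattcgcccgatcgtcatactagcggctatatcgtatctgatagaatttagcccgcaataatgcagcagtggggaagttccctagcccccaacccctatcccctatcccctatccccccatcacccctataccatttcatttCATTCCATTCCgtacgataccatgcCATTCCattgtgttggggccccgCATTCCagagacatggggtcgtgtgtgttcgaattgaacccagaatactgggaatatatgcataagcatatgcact

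CATTCC or its reverse complement GGAATG was in the central 300 bases of 3 of the 12 peaks (25%), a pair at kibra and the one at ban, against 15% of all listed peaks. Over whole peaks it was in 6 of 12 (50%), all at ex, kibra and ban, against 42% of all listed peaks. Its density was 1.11 copies per kb in the 12 peaks and 0.563 per kb in all, and 4 of the copies in the 12 peaks lay in a single kibra peak. The kibra peak with 4 cores had the smallest difference of the 12. TGACAG (reverse complement CTGTCA), the core of Homothorax, a partner of Yorkie in the eye disc, was in 1 of 12 windows (8.33%), against 10.2% of all listed peaks. In whole peaks TGACAG was in 2 of 12 (16.7%), against 31.3% of all listed peaks. Each motif was read on both strands, and none of the motifs contains another.

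**Figure D3:**
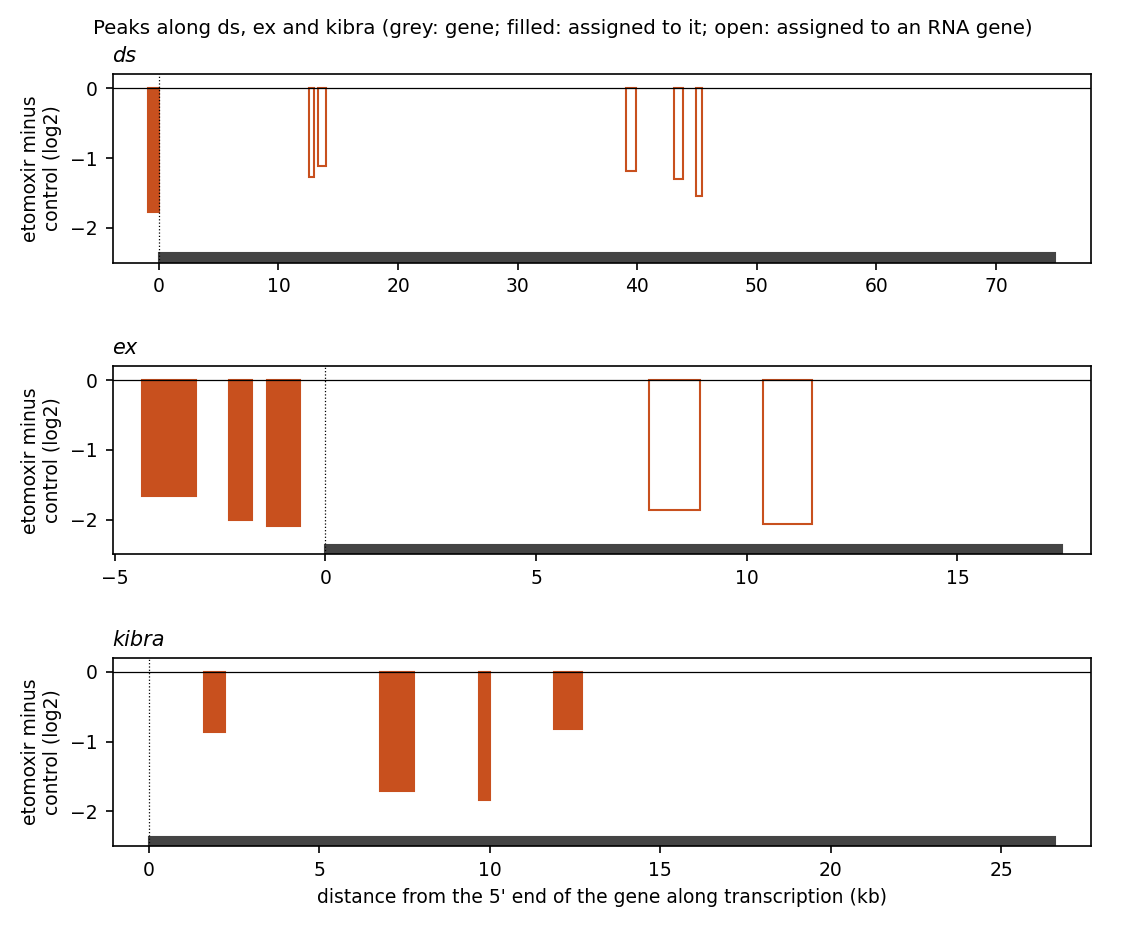
H3K18ac difference (etomoxir minus control, log2; vertical axis) of each listed peak along ds, ex and kibra, by distance in kb from the 5′ end of the gene in the direction of transcription (horizontal axis). The grey bar is the gene, filled bars are peaks assigned to it and open bars peaks assigned to an RNA gene inside it; the peaks of ds and ex assigned to these genes lie upstream of the start, and the 4 of kibra inside the gene.

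Among the outputs, ban (FBgn0262451, hairpin at chr3L:642208-642288, plus strand) encodes bantam, a microRNA that promotes growth and blocks cell death. Its mature strand (RefSeq, chr3L:642259-642281) is shown with the seed, bases 2 to 8, in capitals, since these bases pair with its targets. The assigned peak (chr3L:644217-644853) lies 2009 bases past the start of the hairpin and had 29.7 normalized reads in etomoxir discs, against 75.1 in control discs, a difference of -1.34. It begins 317 bases behind the end of lncRNA:CR43334 (chr3L:628435-643900), the longer non-coding RNA gene that contains the hairpin. The central 300 bases of the peak (chr3L:644385-644684, plus strand) are shown because they hold 1 GGAATG core, in capitals.
mature bantam: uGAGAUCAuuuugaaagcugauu
ban peak: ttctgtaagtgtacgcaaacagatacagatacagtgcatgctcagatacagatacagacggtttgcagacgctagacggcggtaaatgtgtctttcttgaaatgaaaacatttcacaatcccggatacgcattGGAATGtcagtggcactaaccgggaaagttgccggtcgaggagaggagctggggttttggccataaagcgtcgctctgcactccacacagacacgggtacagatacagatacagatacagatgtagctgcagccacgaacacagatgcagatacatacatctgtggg

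Upstream of the hairpin the mark was lower too. A peak inside lncRNA:CR43334 (chr3L:639865-640999), which ends 1209 bases before the hairpin and is assigned to FBgn0263039, had a log2 value of 5.51 in etomoxir discs, against 6.93 in control discs, a difference of -1.42. Within 25 kb of ban, 7 listed peaks were lower and 0 higher, with differences of -2.79 to -1.21. The assigned peak and the upstream one are among the 7.

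Diap1 and CycE, not listed under their own names, each held 1 lower peak in an intron. Diap1 (FBgn0260635, chr3L:16038410-16051034, minus strand) encodes an inhibitor of caspases that keeps cells alive. The peak inside it (chr3L:16041124-16041971), assigned to asRNA:CR45889, an antisense RNA gene, lies 589 bases upstream of one of the 5 annotated Diap1 starts and had 65.8 normalized reads in etomoxir discs, against 147 in control discs, a difference of -1.16. CycE (FBgn0010382, chr2L:15727581-15748150, minus strand) encodes Cyclin E, which drives cells into DNA replication. The peak inside it (chr2L:15742555-15744339), assigned to lncRNA:CR44974, lies 2271 bases behind one of the 3 CycE starts and had 103 reads in etomoxir discs, against 229 in control discs, a difference of -1.15. It was the only listed peak within 25 kb of CycE and had the highest signal in both groups of all 21 peaks assigned to or inside the 10 genes.

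With these, 9 peaks inside ds, ex, Diap1 and CycE were assigned to RNA genes, with a median difference of -1.27, and each was lower by at least 1 on the log2 scale. Of the 21 peaks together, 19 were lower by at least 1 and the median was -1.34. The number of genes with a lower peak assigned to them or inside them was 8 of 10, against 10.1% of all annotated genes. Counted by overlap with the gene body alone, 6 of the 10 genes had a lower peak, against 7.26% of all annotated genes. These were not the same 6 as by assignment: ft and ban had no lower peak in the gene body, and Diap1 and CycE had 1 each. A longer gene body can overlap more peaks, and ds spans 74971 bases. Neither the 10.1% nor the 7.26% was matched for body length or limited to genes that carry the mark. In relation to gene starts, 6 of the 12 assigned peaks (50%, 95% Wilson interval 25.4 to 74.6%, counting error only) carried the deposited promoter annotation, which reaches 3 kb from a start, against 62.8% of all lower peaks. That share depended on the definition of a promoter. The centre lay within 1000 bases of a start at 2 of the 12 peaks (16.7%), against 36.7% of all lower peaks, and 0 of 12 overlapped a start, against 24.7% of all lower peaks.

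Mer and yki had no listed peak assigned to them or inside them. Mer (FBgn0086384, chrX:19689697-19693500, minus strand) encodes Merlin, the FERM-domain partner of Expanded, and the nearest listed peak lay 23516 bases away, at CG12531, with a difference of -0.94. The co-activator gene yki (FBgn0034970, chr2R:24065975-24068485, minus strand) was the only one of the 10 with higher peaks and no lower peak around it. The nearest listed peak, 2314 bases away and assigned to Rap2l, a small GTPase gene, had a log2 value of 6.43 in etomoxir discs, against 5.48 in control discs, a difference of 0.95. Within 25 kb of yki, 4 peaks were higher and 0 lower. Besides that of Rap2l they were assigned to tsr and sei, with differences of 0.78 and 1.05, and to ppk29, with a log2 value of 9.30 in etomoxir discs, against 8.10 in control discs. In the other direction, kibra was the only one besides yki with a higher peak in its 25 kb window. That was 1 peak at 0.90 beside 6 lower ones, of which 4 are its own. Mer and yki had less sequence nearest to their starts than the median gene, 3055 and 2140 bases against 3593.

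The 10 genes belong to a wider list of 56 genes of the same pathways, of which 23 (41.1%) had a lower peak, 2 a higher one and 31 no listed peak. Without the 10, 17 of 46 genes (37%) had a lower peak, 2 a higher one and 27 none, with a median difference of -1.42 over 36 lower peaks. Of all annotated genes, 8.08% were assigned a lower peak and 1.77% a higher one. Of the 4469 with at least 7987 bases nearest to their starts, 20.2% were assigned a lower peak. The wider list was not matched for this length. The counts by role, which include the 10 and were not tested against each other, follow. In the cadherin branch 5 of 10 genes had a lower peak, and 2 of 7 without ft, ds and fj. The Dachs gene d, one of them, was at 5.20 in etomoxir discs, against 6.23 in control discs (log2). Of the membrane inputs 3 of 7 had a lower peak, and 1 of 4 without ex, Mer and kibra. Of the kinase core and its regulators, which hold none of the 10, 2 of 15 had one (13.3%), near the background. In this last group hpo, sav and mats, for the kinase Hippo and the adaptors Salvador and Mats, were not listed. The Warts gene wts had a single lower peak at 5.47 in etomoxir discs, against 6.41 in control discs (log2). For app, which encodes the palmitoyltransferase Approximated of the cadherin branch, no peak was listed.

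Nuclear factors had a lower peak in 5 of 9 genes and outputs in 8 of 15, beside the 8.08% of all annotated genes. Without the growth control genes described above, the counts were 5 of 8 and 7 of 12. The Scalloped gene sd was at 5.65 in etomoxir discs, against 7.08 in control discs (log2), a difference of -1.43, whereas its partner yki was not listed. Myc, an output that drives ribosome production, was not listed either. Among the 46 genes beyond the 10, the most negative differences were at dally, a glypican that shapes the spread of morphogens, with 5 lower peaks from -2.71 to -1.40, and at Tgi, a co-repressor that competes with Yorkie for Scalloped, with -2.06 and -1.21. The glypican gene dlp and the homeobox gene hth followed, each with -2.00 at its strongest peak. Slmap, which encodes a part of a phosphatase complex that turns Hippo off, had a pair of higher peaks (0.62 and 0.82), and Wbp2, a co-factor of Yorkie, had 1 at 6.90 in etomoxir discs, against 4.98 in control discs (log2).

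**Figure D4:**
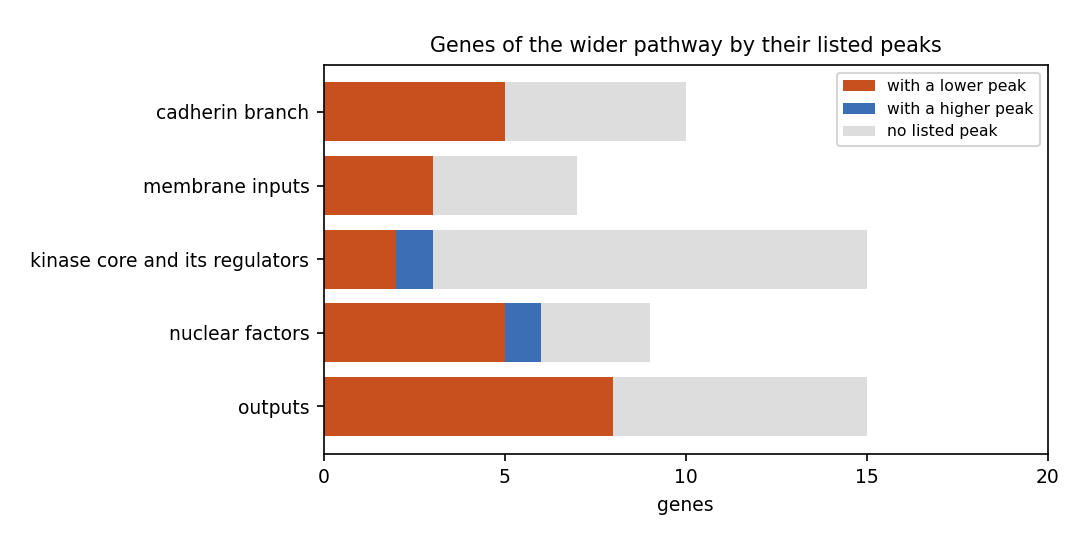
Number of genes (horizontal axis) in each of 5 roles of the 56-gene pathway list with at least 1 lower peak in etomoxir discs, with a higher peak, or with no listed peak. The kinase core and its regulators had the most genes without a listed peak, 12 of 15, and the cadherin branch had lower peaks in 5 of 10. The growth control genes described above are included in these counts. Over all annotated genes 8.08% were assigned a lower peak.

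Listed peaks were also counted at marker genes of the wing disc and of other cell types. Of 9 wing disc markers, 5 had a lower peak (vg, ap, zfh2, tsh and hth), while nub, rn, wg and Dll were not listed. A lower peak was also listed at 1 of 2 tracheal markers (trh). Of the markers of the adepithelial myoblasts 0 of 4 were listed, of haemocytes 0 of 4 and of the fat body 0 of 2. None of the 21 had a higher peak. Over all annotated genes 8.08% were assigned a lower peak. Only peaks that passed the filter are listed, so these counts cannot check the tissue. They do not give the level of the mark at unlisted markers, and the part of other cells in the differences was not tested.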

How the data were processed

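The Cut&Run experiment comprised 2 etomoxir and 3 control libraries, made from wing discs with an antibody to H3K18ac. The authors trimmed reads with Trim Galore 0.6.3, aligned them to dm6 with Bowtie2 2.4.2, removed duplicates, called peaks with MACS2 2.1.1.20160309.6, compared the groups with DiffBind 2.10.0 and assigned each peak to the nearest start with ChIPseeker 1.18.0. Yeast spike-in DNA was added, and its use for scaling is not given in the sources used here.

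The deposited values used are the authors' log2 mean normalized read counts per group. At 100% of peaks the value over all libraries equalled, within 0.02, a mean weighted by 2 etomoxir and 3 control libraries, so the directly dissected discs are in the control group. The deposited p-value and FDR columns and the log2 fold change hold the authors' own comparison, and were not used, apart from reading the FDR filter. Other deposited columns used were positions, distances, annotation and gene identifiers from the authors. No depth per library stands in the table. Normalized read counts were computed as 2 to the power of the log2 value. Deposited starts count from 0, so 1 was added.

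Peaks were matched by identifier to Ensembl release 115 (98.2% of 1785 identifiers), and sequences were read from the RefSeq dm6 assembly. Motifs were counted on both strands in the central 300 bases and in whole peaks. Shares have 95% Wilson intervals over peaks or genes, which cover counting error only. Peak assignment and motif counting were tested on simulated data. Python 3.11.15, numpy 2.4.6, pandas 2.3.3, scipy 1.17.1 and matplotlib 3.10.9 were used.

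The genes and lists were chosen with earlier results of these data known. Genes named are the 10 of the list with every peak, the RNA genes that hold peaks inside them, the 3 of the wider list, the 10 left out, with the most negative difference (ties included), any with a higher peak, and sd, hpo, sav, wts, mats, d, app and Myc. The neighbours of Mer and yki, and the split of the wider list into roles, were added after the values were seen. Alternatives covered the assignment of peaks, a minimum difference, merged peaks, a minimum signal and the promoter definition.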

Additional observations from a re-analysis of the deposited data

How the results depend on the processing

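Of the results that answer a comparison, 27 stayed within the spread allowed for them (counts within 1.5 times) and 3 moved. Across the alternatives run, genes with a lower peak numbered 6 to 8 of 10, lower peaks 10 to 21, the median difference lay between -1.69 and -1.29, and 19 to 26 of the 56 pathway genes had a lower peak. These counts and medians cover lower peaks only, so the alternatives could not show a reversed direction. Adding peaks inside the genes to the assigned ones, an alternative chosen after seeing the data, gave 21 lower peaks in place of 12, by construction. The share of the 12 peaks in a promoter was 50% by the deposited annotation, 16.7% where the peak centre had to lie within 1000 bases of a start and 0% where the peak had to overlap one. Of the counts of single genes, 56 stayed and 14 moved, such as ds with 5 peaks by gene body in place of 1 and kibra with 1 near its start in place of 4. No paired analysis was possible because the columns hold group means and carry no replicate numbers. For the same reason no replicate could be left out in turn, so the weight of the control library with the most unique reads and of the uncultured control in these values was not assessed.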
